A study of Mus musculus with 3 samples.

Results

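NKX2-5 occupancy was examined at the 8 genes of the neuregulin and ERBB receptor system, the ligand genes Nrg1, Nrg2, Nrg3 and Nrg4 and the receptor genes Egfr, Erbb2, Erbb3 and Erbb4. Hearts of E11.5 embryos of the Parkes mouse strain, in mid-gestation, were fixed, and chromatin bound by NKX2-5, a homeodomain factor of the cardiac lineage, was collected with the N-19 antibody and sequenced (ChIP-seq). The ChIP was represented by 2 libraries, S1 and S4, and a further library (Input) held genomic DNA. Its own data were not used here, and whether it served as the control for the peak calls is not given in the sources used here. All came from whole hearts of the same strain and stage, so myocardium, endocardium and cushion cells cannot be told apart, and there was 1 condition only, which allows no test between groups. A peak was assigned to a gene when its midpoint lay in the gene body of the GENCODE M1 annotation (mm9) or within 100 kb of it. By this rule 11 of 4418 S1 peaks and 14 of 5441 S4 peaks lay near the 8 genes, a mean of 12.5 ± 2.12 (SD, n = 2 libraries), and 8 of the 2546 regions shared by both libraries. Nothing in the labels says whether the libraries came from separate pools of hearts, so the spread between them may be technical, and their sequencing depth is unknown here.

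Neuregulins are growth factors with an EGF-like domain that bind ERBB3 and ERBB4. Receptors of this family signal as pairs, in which ERBB2, which has no ligand of its own, is a preferred partner, ERBB3 has little kinase activity and EGFR binds a separate set of EGF-like ligands. In the embryonic heart NRG1 is made by the endocardium and acts on ERBB2 and ERBB4 of the neighbouring myocardium, which need it to form trabeculae, while ERBB3 is known for its role in the mesenchyme of the endocardial cushions.

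Peaks of both libraries lay near every receptor gene and near 1 ligand gene. A shared region, in which an S1 and an S4 peak overlapped by at least 1 bp, was present in the window of 5 of 8 genes, Nrg4, Egfr, Erbb2, Erbb3 and Erbb4, against 24.3% of 22367 protein-coding genes with windows drawn the same way. Of these, only Egfr and Erbb4 held the shared region inside the gene itself, as did 4.82% of all protein-coding genes. Their bodies cover 166 kb and 1076 kb, and those of Nrg4, Erbb2 and Erbb3 cover 107 kb, 25.2 kb and 22.1 kb. S1 had a peak near the same 5 genes (38.4% of all protein-coding genes) and S4 near 6, with Nrg2 added (44.6% of all). Nrg1 and Nrg3 had no peak in either library, which was also true of 47.1% of all protein-coding genes. The genes were chosen as a family with earlier results of these data known, so these counts are set beside the background without a test.

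The sequences of the best shared region of each gene are shown first, because the positions of motif matches differ between them. For each gene the region with the highest lower score of both libraries was taken. Its shared stretch runs from the first to the last base covered by peaks of both libraries, and the centre of that stretch is called the midpoint. The sequence from 100 bp before to 100 bp after the midpoint was read from the forward strand of mm9. At Erbb3 the stretch spans 2 S1 peaks and the short gap between them, so its midpoint is not the centre of a peak. Capitals mark exact matches, on either strand, to the NKX2-5 core AAGTG, its longer form TNAAGTG, the MEIS1 core TGACA and the spaced pair GTGNTGACA, in which the end of an NKX2-5 core and a MEIS1 core lie 1 bp apart. MEIS1 is also a homeodomain factor. In the early embryo the authors found it mainly in the anterior heart field, which adds cells to the heart, with levels falling through the outflow tract. In their discussion they describe the embryonic heart itself as lacking MEIS1. The longer form contains the short core and the spaced pair contains the MEIS1 core, so those matches overlap.
Nrg4 region 1 (chr9:55264377-55264577): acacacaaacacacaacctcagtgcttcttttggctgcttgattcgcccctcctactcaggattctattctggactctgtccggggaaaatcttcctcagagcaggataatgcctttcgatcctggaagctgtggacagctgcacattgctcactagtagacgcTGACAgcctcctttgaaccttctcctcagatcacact
Egfr region 1 (chr11:16765342-16765542): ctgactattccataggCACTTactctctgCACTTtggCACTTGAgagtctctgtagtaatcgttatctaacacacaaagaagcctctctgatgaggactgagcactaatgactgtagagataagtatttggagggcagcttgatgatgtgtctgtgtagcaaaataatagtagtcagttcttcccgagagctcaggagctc
Erbb2 region 1 (chr11:98235682-98235882): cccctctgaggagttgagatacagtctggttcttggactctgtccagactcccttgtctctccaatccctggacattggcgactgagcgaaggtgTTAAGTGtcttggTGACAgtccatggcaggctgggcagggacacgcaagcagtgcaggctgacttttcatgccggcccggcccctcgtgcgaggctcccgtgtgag
Erbb3 region 1 (chr10:127930479-127930679): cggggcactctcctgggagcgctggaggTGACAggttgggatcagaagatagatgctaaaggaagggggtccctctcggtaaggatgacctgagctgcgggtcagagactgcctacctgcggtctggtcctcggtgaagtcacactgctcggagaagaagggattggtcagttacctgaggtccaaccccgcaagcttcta
Erbb4 region 1 (chr1:69042016-69042216): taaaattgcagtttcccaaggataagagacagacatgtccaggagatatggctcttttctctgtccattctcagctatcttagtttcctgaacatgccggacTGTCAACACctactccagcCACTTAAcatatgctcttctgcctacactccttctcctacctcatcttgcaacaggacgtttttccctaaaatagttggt

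The Erbb4 window held all 4 forms. The spaced pair began 2 bp after the midpoint and the longer NKX2-5 core 21 bp after it, both on the reverse strand. In the Erbb2 window the longer core covered the midpoint, starting 5 bp before it, and a MEIS1 core followed 8 bp after the midpoint. The Egfr window held 3 NKX2-5 cores on the reverse strand, beginning at -84, -71 and -63 bp from the midpoint, and the last of them had the longer form. The windows at Nrg4 and Erbb3 held 1 MEIS1 core each and no NKX2-5 core. A match is a description of these letters and not evidence of a bound site.

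Erbb4 encodes the receptor that binds neuregulins directly in cardiac myocytes, and its body covers 1076 kb of chromosome 1 on the reverse strand (chr1:68078760-69154633). The 3 S1 peaks scored 152.34, 163.62 and 355.48, and the 2 S4 peaks scored 169.07 and 574.69. The score is the value that the peak caller gave each peak, read here as 10 times the negative log10 of its p-value, and it is not scaled between libraries. In each library 1 peak stood above the others, and these were the only peaks of the gene that overlapped. The S1 peak at chr1:69041845-69042387 lay wholly within the S4 peak at chr1:69041607-69042407, in an intron 113 kb downstream of the Erbb4 start. It scored higher than 78.6% of the S1 list and, in S4, than 89.4% of the S4 list. The other 3 peaks of Erbb4 had no partner and scored between 152.34 and 169.07. Of these, the S1 peak at chr1:69152476-69153091 lay 1.85 kb downstream of the start of Erbb4, within 1 kb of the start of the noncoding transcript Gm16076, and the nearest S4 peak was 110.1 kb away. No other protein-coding gene starts in the Erbb4 window.

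Egfr, which encodes the receptor of epidermal growth factor, had 1 peak in each library and the peaks overlapped. The S1 peak at chr11:16765089-16765906 scored 282.39 and the S4 peak at chr11:16764962-16765796 scored 355.85. They had 708 bp in common, 86.6% of the S1 peak and 84.8% of the S4 peak. The region lay in an intron, 113 kb downstream of the first Egfr start and 12.7 kb upstream of the start of a shorter coding transcript annotated inside the gene. That start was also the nearest coding start of any gene.

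Erbb2 and Erbb3 are short genes in gene-rich sequence, and neither had a peak with its midpoint inside the gene body. Erbb2, the partner receptor without a ligand, covers 25.2 kb of chromosome 11 (chr11:98273784-98299030) and its window also holds the starts of 8 other protein-coding genes. It had 3 S1 peaks, as did Erbb3 and Erbb4, and 5 S4 peaks, the most in S4 of any of the 8 genes, and 3 shared regions. As many or more shared regions were present in the windows of 2.06% of all protein-coding genes. The first of the 3 lay in an intron of Stard3, 38.0 kb upstream of the Erbb2 start, and scored 302.36 (S1) and 323.73 (S4). The nearest coding start was that of Tcap, the gene of the Z-disc protein telethonin, 9.34 kb away. The second lay in an intron of Pgap3, 19.03 kb upstream of Erbb2, with scores of 269.36 and 383.03. The third lay just past the 3' end of Erbb2, 0.542 kb outside the gene body and within 1 kb of the start of 1810046J19Rik, now named Mien1. Its scores were 166.45 in S1 and 640.32 in S4, and it was the only one of the 8 shared regions in which the scores differed by more than 2-fold. The peaks there had 346 bp in common, which was 26.3% of the S4 peak. The S4 peaks without a partner lay over the start of Tcap, at chr11:98244709-98245789 with a score of 267.27, and in Pgap3, at chr11:98255295-98256279 with a score of 239.75. The latter began 0.221 kb past the end of an S1 peak, whereas the nearest S1 peak to the one at Tcap was 8.5 kb away.

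Erbb3 encodes the neuregulin receptor with little kinase activity. It covers 22.1 kb of chromosome 10 on the reverse strand (chr10:128004579-128026708), and 9 other protein-coding genes start in its window. It had 3 S1 peaks, 4 S4 peaks and 2 shared regions, a number reached or exceeded by 6.93% of all protein-coding genes. The stronger region lay over the start of Myl6, a myosin light chain gene of smooth muscle and nonmuscle cells, 74 kb beyond the 3' end of Erbb3. There the S1 peaks at chr10:127929989-127930582 and chr10:127930630-127931345 scored 177.17 and 461.77, and both overlapped 1 S4 peak at chr10:127929788-127931169, which scored 360. The other region, at chr10:127985708-127986599, lay 18.4 kb beyond the 3' end of Erbb3 and 1.36 kb upstream of Zc3h10. It scored 436.57 in S1 and 223.31 in S4. These were the only 2 of the 8 shared regions with a higher score in S1. The S4 peaks without a partner scored 323.58, 3.52 kb downstream of the Myl6 start, and 197.49, over the start of the ribosomal protein gene Rps26. In the Erbb3 window, therefore, the midpoint of every peak lay closest to the coding start of a gene other than Erbb3.

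Among the ligand genes, a peak in both libraries was found near Nrg4 alone. Nrg4 encodes a neuregulin that binds ERBB4. The S1 peak at chr9:55264193-55264762 scored 379.51 and lay wholly within the S4 peak at chr9:55264173-55265065, which scored 409.43. Of the 8 shared regions this had the highest lower score of both libraries, above that of 75.2% of all shared regions. It lay at the edge of the rule, 89.8 kb upstream of Nrg4, in an intron of AI118078, now named Tmem266, a gene that starts close to Nrg4 on the opposite strand. Its distance to the start of either gene is nearly the same, 89.7 kb to AI118078. With the gene body drawn from protein-coding transcripts only, the region fell outside the Nrg4 window. Of all peaks in the windows this pair lay farthest outside a gene body, and the nearest peak beyond the limit was an S4 peak without a partner 107 kb upstream of Erbb3, with a score of 152.2.

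At Nrg2, S4 had a single peak with a score of 177.11 in an intron, 22.3 kb downstream of the start of the gene on chromosome 18. No S1 peak lay in the window, and the nearest was 222 kb from it. Nrg1 and Nrg3 had no peak of either library within 100 kb. The Nrg1 body of the annotation used here covers 191 kb of chromosome 8, and longer Nrg1 transcripts that start far upstream are known. Upstream of the annotated gene the nearest peak was 1771 kb away in S1 and 1897 kb in S4. The nearest shared region lay 352 kb downstream of Nrg1, at chr8:32576083-32576865, where S1 scored 1359.97 and S4 scored 739.27. The coding start nearest to this region, that of Fut10, was 279 kb away. The Nrg3 body is the longest of the 8 at 1104 kb, and its nearest shared region lay 1252 kb beyond its 3' end. Median distance from a protein-coding gene to the nearest shared region was 322 kb.

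**Figure D1:**
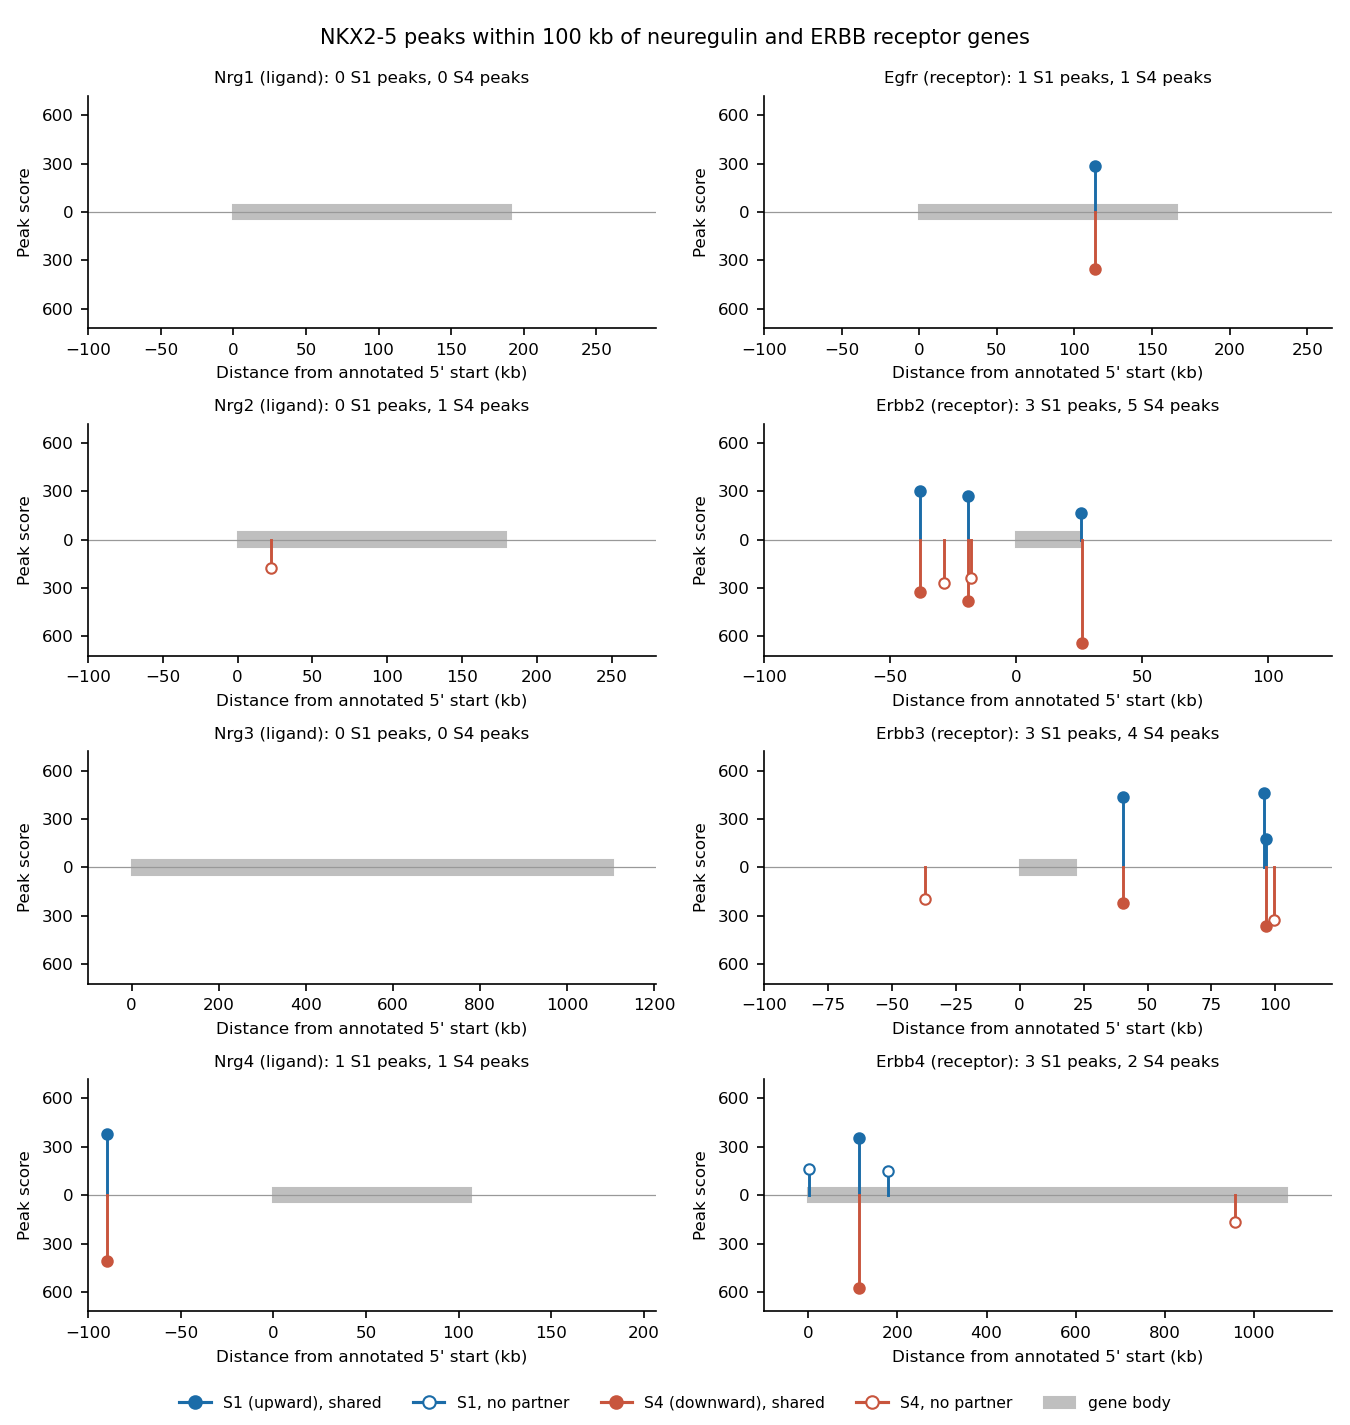
Peaks in the windows of the 8 genes. The horizontal axis is the distance of the peak midpoint from the annotated 5' start (kb, in the direction of transcription), the grey bar is the gene body, and stems give the peak score upward for S1 and downward for S4, filled where the peaks of both libraries overlap. The windows of Nrg1 and Nrg3 are empty, and the filled stems of Erbb2 and Erbb3 all stand outside the grey bar.

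The length of the windows differed widely between the genes, from 222 kb at Erbb3 to 1304 kb at Nrg3. The 4 ligand windows covered 2.38 Mb and held 1 shared region, or 0.42 per Mb. The 4 receptor windows covered 2.09 Mb and held 7, or 3.35 per Mb. Of these, 3 lay near Erbb2 and 2 near Erbb3, all of them nearest to the coding start of another gene. Over all 8 windows there were 1.79 shared regions per Mb, with an exact interval of 0.773 to 3.53 that covers counting error only. This is set beside 1.4 per Mb in the windows of all protein-coding genes together and 0.965 per Mb on chromosomes 1 to 19 and X. By gene the density was 13.3 per Mb at Erbb2, 9 at Erbb3, 3.26 at Nrg4, 2.73 at Egfr and 0.784 at Erbb4. At Nrg4, Egfr and Erbb4 the density rests on 1 shared region each, and its order follows the length of the window. Among the 52 protein-coding genes with a body of at least 1 Mb, to which Nrg3 and Erbb4 belong, 28 had no shared region in the window. Of all protein-coding genes, 75.75% had none, so an empty window was less common among these long genes. Across all genes the number of shared regions rose little with the length of the window (Spearman's rho, 0.124 across 22367 genes, which share regions with their neighbours).

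**Figure D2:**
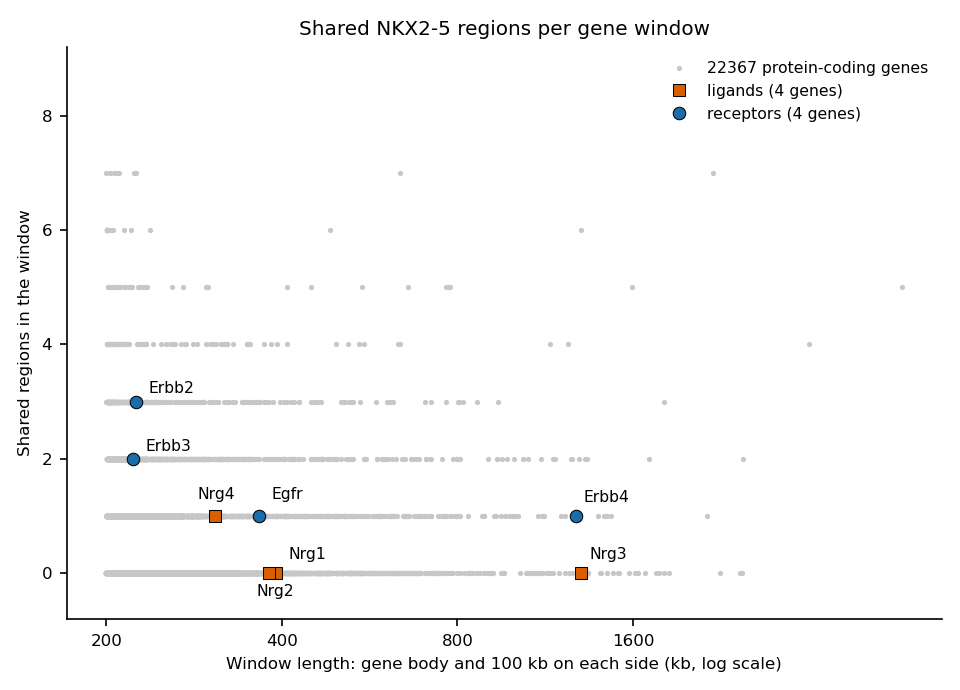
Number of shared regions in a gene's window (vertical axis) against the length of the window in kb (horizontal axis, log scale), for 22367 protein-coding genes in grey, the 4 ligand genes as squares and the 4 receptor genes as circles. Erbb2 with 3 and Erbb3 with 2 regions stand at short windows, and Nrg3 and Erbb4 have windows of similar length with 0 and 1.

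Scores and widths were set beside those of the whole lists. Scores of the 11 S1 peaks ran from 152.34 to 461.77 with a median of 282.39, against 212 over the S1 list, whose scores reach 3100. Those of the 14 S4 peaks ran from 169.07 to 640.32 with a median of 324, against 223 over the S4 list. The list median was exceeded by 7 of 11 S1 peaks and 11 of 14 S4 peaks. The highest, the S4 peak at Mien1, outscored 91.2% of its list. Widths ran from 450 to 854 bp in S1 and from 432 to 1382 bp in S4, with medians of 639 bp and 892.5 bp near the 8 genes and 625 bp and 783 bp over the lists.

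Sharing was set against that of all peaks. Of the 11 S1 peaks near the 8 genes, 9 overlapped an S4 peak (81.8%, exact Clopper-Pearson interval 48.2 to 97.7), beside 58.9% of all S1 peaks. Of the 14 S4 peaks, 8 overlapped an S1 peak (57.1%, 28.9 to 82.3), beside 47.0% of all S4 peaks. Intervals cover counting error only, as if the peaks were independent, and both contain the share of the whole list. The peaks are not independent, since 2 of the S1 peaks overlap the same S4 peak and both shares count the same regions. The 2 S1 peaks without a partner had the lowest scores of the 11, 152.34 and 163.62. In S4 those without a partner ran from 169.07 to 323.58 and overlapped the range of those with one, 223.31 to 640.32.

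**Figure D3:**
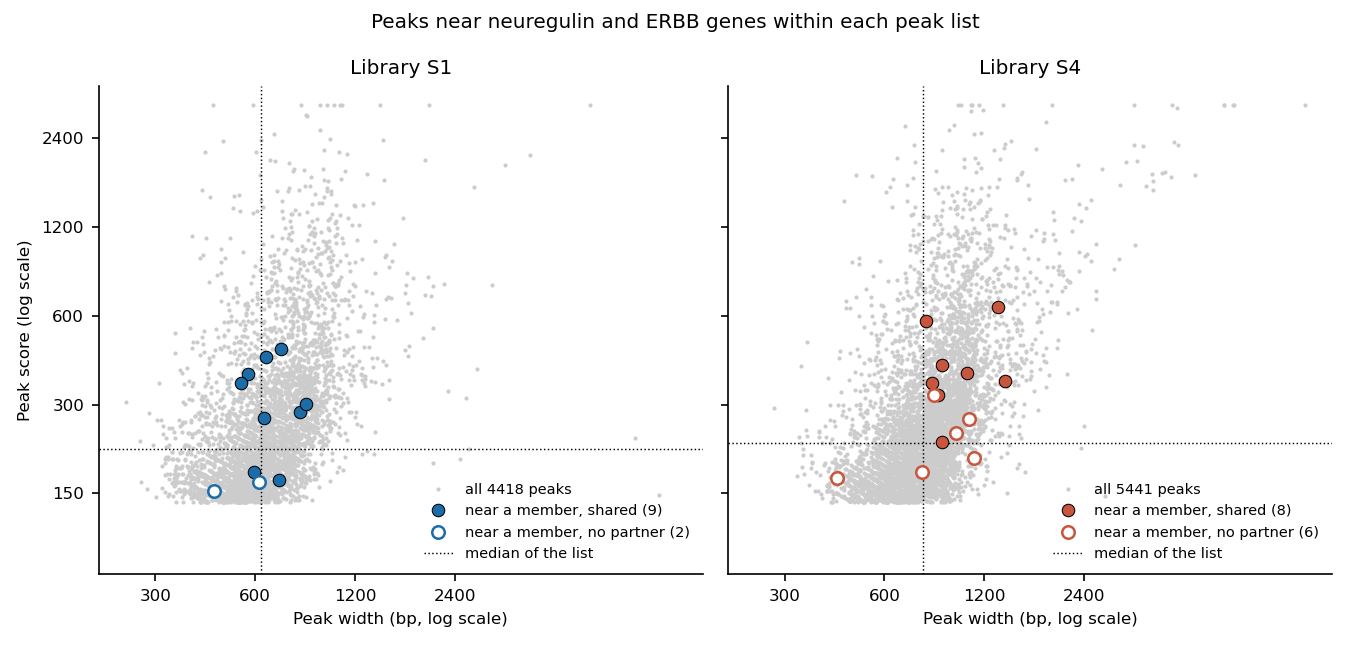
Score (vertical axis, log scale) against width in bp (horizontal axis, log scale) of every peak in S1 and S4 in grey, with peaks near the 8 genes drawn as circles, filled where shared, and dotted lines at the medians of the list. In S1 the 2 open circles lie below all filled ones, and in S4 open and filled circles overlap.

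Across the 8 shared regions the ratio of the S4 to the S1 score ran from 0.512 at Zc3h10 to 3.85 at Mien1, with a median of 1.17. On the log2 scale the median was 0.22, beside 0.16 over all 2546 shared regions. The S4 score was the higher one in 6 of 8, as it was in 60.6% of all shared regions, and 7 of 8 lay within 2-fold (85.7% of all). The lower of both scores ran from 166.45 to 379.51 with a median of 292, against 239.9 over all, and 6 of 8 lay above that value. None of the 8 approached the highest scores in the lists.

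**Figure D4:**
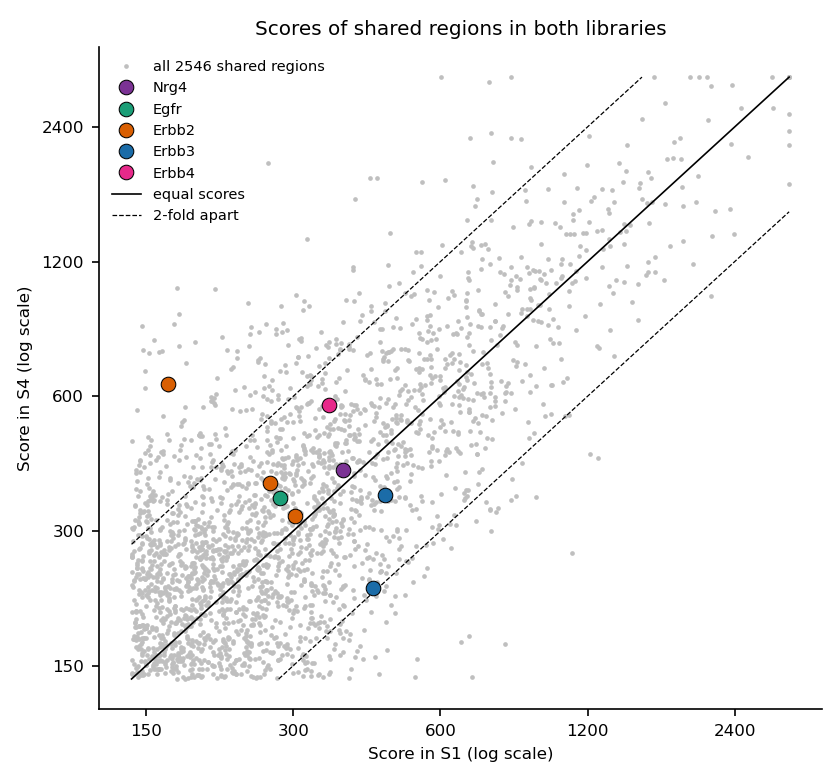
Score in S4 (vertical axis) against score in S1 (horizontal axis), both on a log scale, for all 2546 shared regions in grey and the 8 regions near Nrg4, Egfr, Erbb2, Erbb3 and Erbb4 in colour. The solid line marks equal scores and the dashed lines a 2-fold difference, beyond which lies 1 region of Erbb2.

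By position, 5 of the 8 shared regions lay in introns, 2 at promoters (a transcript start no more than 1 kb away) and 1 in intergenic sequence. Over all shared regions introns held 40.8%, promoters 17% and intergenic sequence 39.04%. Both promoters, of Mien1 and Myl6, belonged to neighbours. The nearest protein-coding start was that of the gene itself in 2 of the 8 regions, at Egfr and Erbb4. Counting only such regions, 2 of the 8 genes kept a shared region, beside 7.69% of all protein-coding genes. At Erbb4 no other protein-coding gene starts in the window, so the nearest start was set by the locus. In the windows of Erbb2 and Erbb3, 8 and 9 other protein-coding genes start. The peak lists hold no expression values, so the gene on which any region acts was not tested.

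Of the 8 shared regions, 3 held the longer NKX2-5 core or the spaced pair within 100 bp of the midpoint, at Egfr, Erbb4 and the Stard3 region of Erbb2, beside 39.0% of all shared regions and 12.1% of windows 2 kb to either side. Taken alone, the short core AAGTG is present in 64.02% of the windows of all shared regions and TGACA in 64.3%, so a single match of either is common. The spaced pair of the Erbb4 intron was the only one in the 8 windows, and 9.47% of all windows held one. At Mien1, Myl6 and the Nrg4 region the window held no AAGTG. When the whole shared stretch was searched, 4 of the 8 regions held either form, with the Pgap3 region added, beside 62.1% of all shared regions. Those at Nrg4, Mien1, Myl6 and Zc3h10 held neither. Of the 8 peaks found in 1 library only, 2 held the longer core, the S4 peak at Tcap and the S4 peak far inside Erbb4. Among all peaks without a partner either form was present in 29.6% of S1 and 26.6% of S4 windows. The G and C content of the 8 windows ran from 43.8% at Egfr and Erbb4 to 61.2% at Pgap3.

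**Figure D5:**
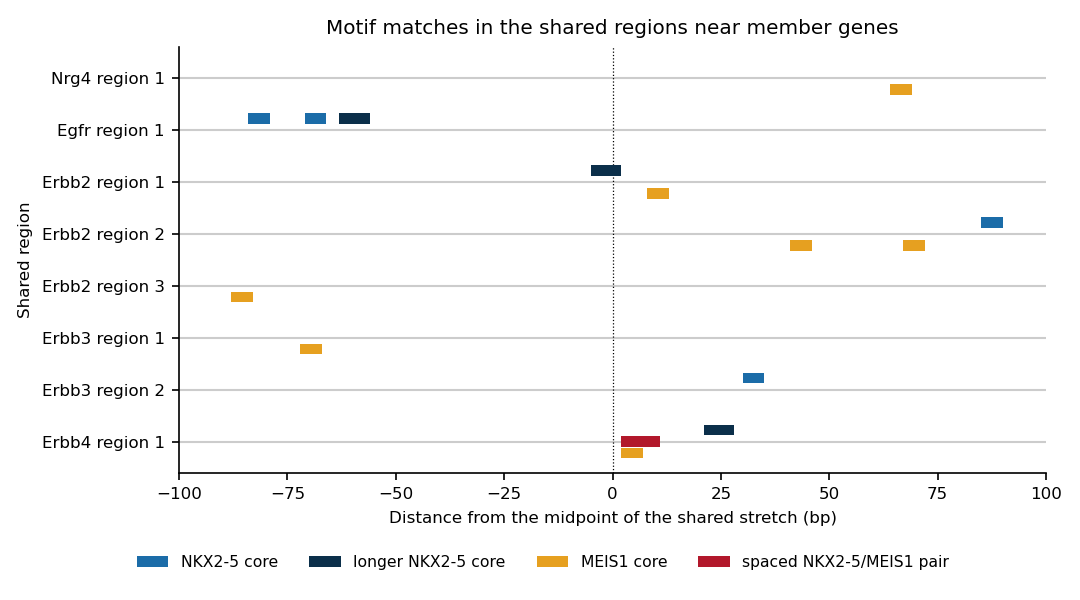
Motif matches within 100 bp of the midpoint of the 8 shared regions, numbered by position along the chromosome within each gene. The horizontal axis is the distance from the midpoint in bp, each row is a region, and bars mark matches on either strand, the short core lying under the longer one where they coincide. The matches nearest to the midpoint are those of Erbb4 region 1 and Erbb2 region 1.

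The rest of the pathway was read from 53 genes grouped by role. A shared region lay in the window of 21 of the 53 (39.6%, beside 24.3% of all protein-coding genes), and 32 had none. By role it was present at 5 of 9 genes of the RAS to ERK cascade, 3 of 5 further effectors, 3 of 7 adaptors, 3 of 7 genes of the PI3K and AKT arm, 3 of 8 receptor regulators, 2 of 6 genes known as outputs of receptor signalling, 1 of 4 genes of ligand processing and 1 of 7 other EGF family ligands. The best region of a gene was the one with the highest lower score of both libraries. That of Ptk2, which encodes focal adhesion kinase, scored 1999.64 (S1) and 1631.38 (S4). It lay in a Ptk2 intron 198 kb from the Ptk2 start, and the nearest coding start was that of Eif2c2. The best region of Lrig2, of a family of receptor regulators, scored 1443.7 and 2187.84. It lay in intergenic sequence 139 kb from the Lrig2 start, and the nearest coding start was that of Gm5546. Map2k2, which encodes a kinase that activates ERK, had 3 shared regions, the best with 420.04 and 517.66. This best region lay 89.0 kb from the Map2k2 start and was nearest to the coding start of Itgb1bp3. Etv4, the gene of an ETS factor, had a best region of 230.34 and 246.61 over the start of Dhx8.

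Both Rnf41 and Grb7 entered this count through regions already described. Rnf41, which encodes a ubiquitin ligase of ERBB3, lies close to Erbb3, and its only shared region is that at Myl6. Grb7, the gene of an adaptor that binds ERBB2, lies beside Erbb2 and its window holds the same 3 regions. In 15 of the 21 genes the best region was nearest to the coding start of another gene. Stat5a and Stat5b also share theirs, so the 21 genes rest on 30 distinct regions, 4 of which are also near a member of the 8.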

How the data were processed

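The authors sequenced NKX2-5 ChIP libraries from E11.5 hearts (Genome Analyzer IIx), aligned them to mm9 by Bowtie and deposited 1 list of MACS peaks per library. The deposited score of each peak is taken as 10 times −log10 of its p-value, from its values. Version and settings of Bowtie, settings of MACS, and the role of the Input are not given in the sources used here. Read numbers were not used here, so depth, on which score and width depend, is unknown.

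Groups came from the labels. The members and gene lists were chosen with earlier results of these data known. Peak starts were counted from 1, and all peaks lay within the NCBIM37 (mm9) chromosomes. Peaks that overlapped by 1 bp or more were shared, and overlapping pairs with a peak in common made 1 region. Gene bodies and starts came from GENCODE M1, and current symbols from RefSeq synonyms. All 53 pathway genes were found, Hras as Hras1. The score of every peak near the 8 genes is reported, with coordinates for some of them and sequence for the region of highest lower score per gene. Neighbours are the genes with the nearest coding start, and named pathway genes come from the 8 with the highest lower score, of which 2 are not reported here. Overlap, windows and motif search were tested on simulated data. Shares, and the density over the windows of the 8 genes, have exact intervals at a confidence level of 0.95. No test between groups was possible. Python 3.11.15, numpy 2.4.6, pandas 2.3.3, scipy 1.17.1 and matplotlib 3.10.9 were used.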

Additional observations from a re-analysis of the deposited data

How the results depend on the processing

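Of 62 alternatives over 9 results, 44 stayed within 1.5-fold of a count or the exact 95% interval of a share or density, and 18 did not. The gene body alone lowered the mean number of peaks to 4, shared regions to 2, genes with one to 2 (Egfr and Erbb4), regions per Mb to 0.697, pathway genes to 4 and the percent of all protein-coding genes to 4.82. Flanks of 50 kb gave 13 pathway genes and 15.7% of all genes and left Nrg4 without a region, flanks of 200 kb gave 37.6% and added Nrg2, and flanks of 500 kb, chosen after seeing the data, gave 15 shared regions, 62.4% of all genes and 7 of the 8, with Nrg1 added. A minimum score of 200 left 10 pathway genes and 15.7% of all genes and raised the share of S1 peaks with a partner to 100%, 7 of 7. Requiring 50% overlap of each peak gave 22.3% of all genes and midpoints within 150 bp 19.6%, and both left 6 shared regions near the same 5 genes. Regions nearest to the gene's own start left 2 of the 8 and, chosen after seeing the data, 7.69% of all genes. Drawing gene bodies from protein-coding transcripts only removed the region of Nrg4. The count of genes under this setting, chosen after seeing the data, was 4. Without either library in turn the number of peaks ran from 11 to 14. No paired analysis was possible because there was 1 ChIP group and no test. Depth was not used here and limits the reading of scores, widths and empty windows.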

Other observations

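Beyond the 100 kb limit, further shared regions lay between 100 and 500 kb from these genes. Nrg2 had 1 at 175 kb downstream, where S1 scored 154.3 and S4 221.06, nearest to the start of Cxxc5, a zinc finger gene. Egfr had 1 at 313 kb downstream with scores of 474.29 and 404.15, nearest to Wdr92. Erbb2 had 1 at 351 kb downstream with scores of 150.32 and 240.77, nearest to Msl1. Erbb3 had 2, over or near the starts of Timeless (342.36 and 193.92) and Baz2a (650.18 and 499.19). Nrg4 had 1 at 432 kb downstream, nearest to Crabp1, which encodes a retinoic acid binding protein, with 336.49 and 143.02. The region 352 kb downstream of Nrg1 had the highest scores of those within 500 kb of any of the 8 genes. Between 100 and 200 kb there were 6 S1 peaks, 2 S4 peaks and 1 shared region.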
